A study of Mus musculus with 10 samples.

Results

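The 6 genes Tst, Mpst, Ethe1, Suox, Cdo1 and Cth encode enzymes of the routes that carry sulfur from cysteine toward sulfate. One route runs through hydrogen sulfide, and Cdo1 belongs to another. The genes were followed here in mouse inguinal white adipose tissue, a subcutaneous fat depot. They were chosen by gene name from the 31285 genes of the deposited table, with the difference between the genotypes in these same libraries already known, so their differences between genotypes are given as a description and without a test. All 6 were found in the table and all 6 passed the filter on low values that left 12785 genes for testing. RNA sequencing had been carried out on 5 libraries labelled Flox and 5 labelled GHR Knockdown, each from mice aged 20 months kept on regular chow. The second group is called Ad-GHRKO below, as in the series, whose title names a GHR knockout (growth hormone receptor) confined to adipose tissue. Flox is the label of the comparison group, and no other allele or agent is named for either. The sources used here do not give the promoter that restricts the deletion to fat, nor the sex of the mice, nor whether each library came from a separate animal, so the spread between libraries may be partly technical.

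In the textbook scheme, cystathionine gamma-lyase (Cth) and 3-mercaptopyruvate sulfurtransferase (Mpst) release sulfur from cysteine and its derivatives, and the mitochondrial enzyme Sqor oxidises hydrogen sulfide to a persulfide. The persulfide dioxygenase Ethe1 turns that sulfur into sulfite, thiosulfate sulfurtransferase (Tst, rhodanese) moves sulfur between persulfides, sulfite, thiosulfate and cyanide, and sulfite oxidase (Suox) makes sulfate. Cysteine dioxygenase (Cdo1) opens the other route out of cysteine, toward taurine and sulfite, and is abundant in fat cells. Tst is known in mouse genetics as a fat cell gene linked to leanness. Tst and Mpst are related enzymes built from the same rhodanese fold, and their genes are neighbours.

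Because Tst and Mpst are paralogs, their coding sequences were compared first, to see how far reads could be assigned to the wrong copy. In GENCODE M21 the transcripts Tst-201 and Mpst-201 each had 891 coding bases, and 595 of 869 aligned bases were identical (68.5%). The longest run without a mismatch was 18 bases, also when the listed coding transcripts of both genes were compared. The exons of Tst cover 3163 bases and Tst-201 has 1144, so the comparison did not cover all exonic bases of Tst. The capitals mark it, at coding bases 667 to 684 of each transcript, with 15 bases on either side.
Tst-201: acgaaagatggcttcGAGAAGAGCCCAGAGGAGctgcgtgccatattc
Mpst-201: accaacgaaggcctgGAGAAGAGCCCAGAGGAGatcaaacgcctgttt
Runs of identity of that length are short beside a sequenced fragment, but the sources used here do not say how reads with several matches were treated.

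Promoter windows, from 250 bases before to 50 bases after the start of a transcript, came from RefSeq on GRCm38.p6, whose table matched 3 of the 6 genes (Mpst, Suox and Ethe1). They are printed for the gene of the 3 that stood lower with Tst and for the pair whose levels overlapped between genotypes. The motifs searched on both strands were TTCNNNGAA for STAT factors, TGACNNNGC for the antioxidant response, the repeat bound by PPAR with RXR, TTGCNNNAA for CEBP factors, the GC box spelled GGGCGG, and the core promoter element spelled TATAAA. Matches are in capitals. The Mpst window is on the plus strand at chr15:78406551-78406850, the Suox window on the minus strand at chr10:128673869-128674168, and the Ethe1 window on the plus strand at chr7:24587293-24587592.
Mpst: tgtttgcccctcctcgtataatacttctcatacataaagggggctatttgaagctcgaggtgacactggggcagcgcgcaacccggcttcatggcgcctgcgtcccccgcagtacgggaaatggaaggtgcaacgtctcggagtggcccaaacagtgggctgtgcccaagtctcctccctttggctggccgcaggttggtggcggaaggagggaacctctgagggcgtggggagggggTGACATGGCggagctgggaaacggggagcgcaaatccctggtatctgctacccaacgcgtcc
Suox: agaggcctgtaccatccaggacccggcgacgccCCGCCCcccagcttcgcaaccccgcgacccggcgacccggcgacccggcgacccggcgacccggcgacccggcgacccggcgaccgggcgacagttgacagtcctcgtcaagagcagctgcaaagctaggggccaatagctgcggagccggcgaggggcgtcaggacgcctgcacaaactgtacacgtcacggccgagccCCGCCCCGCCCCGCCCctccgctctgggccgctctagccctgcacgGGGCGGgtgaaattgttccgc
Ethe1: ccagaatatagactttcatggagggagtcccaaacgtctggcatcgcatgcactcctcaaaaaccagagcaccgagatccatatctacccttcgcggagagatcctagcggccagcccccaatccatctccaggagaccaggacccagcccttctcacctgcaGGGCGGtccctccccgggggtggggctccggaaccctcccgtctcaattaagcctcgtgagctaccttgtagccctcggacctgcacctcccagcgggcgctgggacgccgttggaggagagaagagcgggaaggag
The Mpst window held 1 match to the antioxidant response letters, which 12.4% of 32851 windows of 300 bases hold, while the other Mpst windows, which start at 78406462 and 78406854, held none of the 6 motifs. The Mpst window with a match is the one printed. Suox held 5 GC boxes, some of them overlapping each other, the printed Ethe1 window held 1, and the other Ethe1 window, which starts at 24593658, held 3; a GC box is found in 35.7% of all windows. The printed windows of Mpst, Suox and Ethe1 held 19, 40 and 17 CpG dinucleotides, against a median of 7 over all windows; the Mpst window at 78406854 held 7. None of the 6 member windows held the STAT letters, which 8.30% of all windows hold. A match is a string of letters and does not show binding.

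The libraries held 14615400 to 19269100 fragments by the whole-read steps of the deposited values, and the depths of the genotypes overlapped. Ghr, the targeted gene, stood at 72.9 to 130 FPKM (fragments per kilobase of exon, scaled to library depth) in Flox, and the Ad-GHRKO libraries held 13.0 to 20.1 FPKM, so the labels matched it in every library. All 8 adipocyte markers were present, with a summed level of 5894 to 9498 FPKM in Flox and 3251 to 9445 FPKM in Ad-GHRKO. Fabp4 was the highest, at 842 to 2925 FPKM. The sum joins markers that differed in opposite directions, 5 of the 8 negative, and none of the 8 passed limma. Adipoq was at 1840 FPKM in Flox against 933 in Ad-GHRKO without overlap (limma adjusted p = 0.117), and Lep at 283 against 768 (0.115). The 12 skeletal muscle markers made up 6.01% of reads in Flox 3, 8.47% in Flox 5 and 15.2% in Ad-GHRKO 1, which are called muscle-rich below, then 0.188% in Ad-GHRKO 5 and at most 0.0113% in each other library. Ad-GHRKO 1 had the lowest adipocyte sum and the highest summed level of 6 hepatocyte markers (371 FPKM, against 13.6 to 192 in the others), among which Alb was at 11.9 to 220 FPKM. The summed level of 8 immediate early genes, which respond within minutes to handling, was 81.7 to 138 FPKM in Flox and 196 to 608 in Ad-GHRKO, and 4 of the 8 passed as higher. Of the brown adipocyte markers 2 were tested and Cidea, a lipid droplet protein, was lower: it stood at 13.1 to 70.8 FPKM in Flox and 2.27 to 10.6 in Ad-GHRKO without overlap (log2 difference -2.25, limma adjusted p = 0.0297). The Cidea call ended in 10 of the other settings and held in 12. Among those where it ended were the fits without Flox 1, 2, 3 or 5 or Ad-GHRKO 3 or 5, 1 left out at a time (limma adjusted p = 0.0551 to 0.0816). It also ended with the replicate block (0.101) and without the 3 muscle-rich libraries (0.0844). The 5 brown markers summed to 60.7 to 227 FPKM in Flox, where the muscle-rich Flox 3 and Flox 5 held 132 and 227. The sum was 13.6 to 32.7 in Ad-GHRKO 2 to 5 and 190 in Ad-GHRKO 1, so the genotypes overlapped. Cox8b was the largest part of the sum in Ad-GHRKO 1, at 178 FPKM, and also in every Flox library, at 46.6 to 164 FPKM. Ucp1, on the same list, was too low to be tested and did not run like Cidea. It stood at 0.0343 to 0.0685 FPKM in Flox 1 to 4 and at 9.76 in the muscle-rich Flox 5. Every Ad-GHRKO library lay between these, at 0.586 to 3.57 FPKM in Ad-GHRKO 2 to 5 and lower in Ad-GHRKO 1. The part of all these marker levels in the differences described here was not tested. Across all genes, limma on log2(FPKM + 1) called 1.42% of the 12785 genes lower and 0.774% higher in Ad-GHRKO at an adjusted p of 0.05, with a median log2 difference of 0.04. An unadjusted limma p under 0.05 was found for 2091 of the 12785. Every Ad-GHRKO library lay below every Flox library for 3.35% of the genes, and above for 1.62%. Among the 6 genes 2 were called lower, 0 higher, and the same 2 had groups that did not overlap; since the genes were chosen on this contrast, nothing is read from these counts. The count of 2 became 1, with Mpst not called, with the replicate number as a block, with no filter on low values and without Ad-GHRKO 3. In whole tissue, fewer cells of a type and less RNA per cell cannot be told apart.

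Tst (ENSMUSG00000044986, GRCm38 chr15:78399556-78405907, minus strand) showed the widest gap between the genotypes among the 6. Its level in Flox 1 to 5 was 22.5, 25.6, 20.7, 35.1 and 29.0 FPKM, and in Ad-GHRKO 1 to 5 it was 4.80, 2.41, 1.93, 2.87 and 1.34 FPKM. The highest Ad-GHRKO library thus lay far under the lowest Flox library. The means were 26.6 ± 5.71 FPKM and 2.67 ± 1.32 FPKM (SD, n = 5 each), so the Ad-GHRKO mean was 10.04% of the Flox mean, a log2(FPKM + 1) difference of -2.96 (SE 0.23). These levels rested on 1129 to 1981 fragments per library in Flox and 62 to 278 in Ad-GHRKO. With the pseudocount of 1 the log2 difference understates the gap of so low a gene. Relative spread was wider in Ad-GHRKO, where the coefficient of variation was 49.5%, against 21.5% in Flox. Without the 3 muscle-rich libraries the Tst log2 difference was -3.20, and without Ad-GHRKO 1, which had the highest Tst level of its group, it was -3.14.

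Mpst (ENSMUSG00000071711, chr15:78406416-78414013, plus strand), the paralog, was also lower in every Ad-GHRKO library. It measured 33.8, 37.8, 29.6, 32.9 and 35.4 FPKM in Flox 1 to 5 and 21.0, 18.5, 11.6, 15.8 and 8.81 FPKM in Ad-GHRKO 1 to 5. The groups did not overlap, and the Flox libraries were close together. The means of 33.9 ± 3.03 and 15.2 ± 4.97 FPKM put Ad-GHRKO at 44.7% of Flox, with a log2 difference of -1.17 (SE 0.21). Between 1149 and 1444 fragments supported each Flox value and 276 to 824 each Ad-GHRKO value. Without Ad-GHRKO 3 the Mpst log2 difference was -1.09, and without the 3 muscle-rich libraries it was -1.33.

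**Figure D1:**
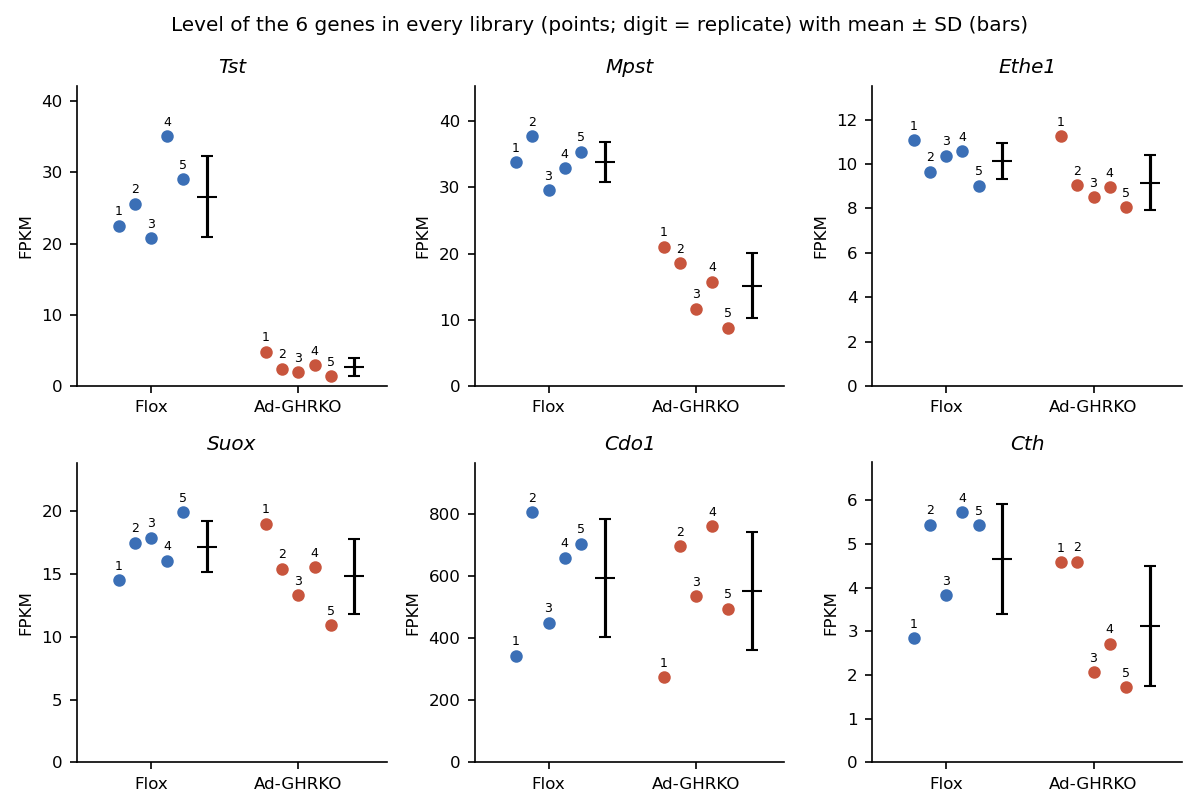
Level of the 6 genes in FPKM on linear axes that start at 0, 1 panel per gene, with 1 point per library (the digit is the replicate) and a bar for the mean ± SD of 5 libraries per genotype. In the Tst and Mpst panels every Ad-GHRKO point lies below every Flox point, and in the other 4 panels the groups overlap.

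Sulfide-to-sulfite chemistry in mitochondria needs Ethe1 (ENSMUSG00000064254, chr7:24587543-24608925, plus strand), a gene that overlaps Zfp575 on the opposite strand. Its levels were 11.1, 9.67, 10.4, 10.6 and 9.02 FPKM in Flox 1 to 5 and 11.3, 9.06, 8.49, 8.95 and 8.07 FPKM in Ad-GHRKO 1 to 5. The single highest value of all 10 was in Ad-GHRKO 1, and the groups overlapped. Means were 10.1 ± 0.809 and 9.17 ± 1.24 FPKM, a log2 difference of -0.14 (SE 0.12), on 175 to 306 fragments per library. In fits added after the values were seen, the groups did not overlap without the 3 muscle-rich libraries (log2 difference -0.25). Nor did they without the 4 libraries with muscle reads (-0.22). Ethe1 was not called in either fit. Groups of fewer libraries lie apart more easily, and the share of all genes apart in these fits was not computed. The part of muscle RNA in the Ethe1 values was not tested.

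Suox (ENSMUSG00000049858, chr10:128669894-128674073, minus strand), the molybdenum enzyme that ends the route at sulfate, measured 14.5, 17.5, 17.9, 16.0 and 19.9 FPKM in Flox 1 to 5. In Ad-GHRKO 1 to 5 it measured 19.0, 15.4, 13.3, 15.5 and 10.9 FPKM. The groups overlapped through the high Ad-GHRKO 1 and the low Flox 1. Means of 17.2 ± 2.02 and 14.8 ± 2.99 FPKM gave a log2 difference of -0.21 (SE 0.15), and each value came from 398 to 945 fragments.

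Cdo1 (ENSMUSG00000033022, chr18:46713193-46728395, minus strand) was the most abundant of the 6 per unit of length. Flox 1 to 5 held 344, 805, 450, 660 and 705 FPKM, and Ad-GHRKO 1 to 5 held 275, 696, 534, 762 and 495 FPKM. The lowest library of each genotype was its replicate 1, and the groups overlapped over most of their range. Means were 593 ± 190 and 552 ± 190 FPKM, with a log2 difference of -0.12 (SE 0.32) that turned to 0.11 without Ad-GHRKO 1 and to 0.0028 with the values rescaled to a common total.

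Cth (ENSMUSG00000028179, chr3:157894248-157925077, minus strand) was the least abundant of the 6 in Flox, and it overlaps the predicted gene Gm43314 on its own strand. It stood at 2.85, 5.44, 3.83, 5.72 and 5.44 FPKM in Flox 1 to 5 and at 4.58, 4.59, 2.07, 2.71 and 1.72 FPKM in Ad-GHRKO 1 to 5. Ad-GHRKO 3, 4 and 5 lay under every Flox library, while Ad-GHRKO 1 and 2 lay inside the Flox range. The means were 4.65 ± 1.26 and 3.13 ± 1.37 FPKM, a log2 difference of -0.48 (SE 0.24), on 70 to 289 fragments per library.

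By mean FPKM, which depends on the exon length used for each gene, the order in Flox was Cdo1, Mpst, Tst, Suox, Ethe1 and Cth. In Ad-GHRKO it was Cdo1, Mpst, Suox, Ethe1, Cth and Tst, so Tst moved from the third place to the last. Mpst and Suox, neighbours in the Ad-GHRKO order, did not differ beyond their spread (15.2 ± 4.97 and 14.8 ± 2.99 FPKM), nor did Cth and Tst (3.13 ± 1.37 and 2.67 ± 1.32 FPKM). In Flox the SD ranges of Mpst (33.9 ± 3.03) and Tst (26.6 ± 5.71) overlapped as well.

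The ratio of Tst to Mpst within a library varied inside each genotype, and its ranges in the 2 genotypes did not overlap. Tst over Mpst was 0.786 ± 0.168 in Flox, from 0.666 to 1.07, and 0.172 ± 0.0371 in Ad-GHRKO, from 0.130 to 0.229 (SD, n = 5 each). As a share of the summed FPKM of the pair, Tst took 39.97%, 40.4%, 41.2%, 51.6% and 45.05% in Flox 1 to 5 and 18.6%, 11.5%, 14.2%, 15.4% and 13.2% in Ad-GHRKO 1 to 5. By FPKM, Tst exceeded Mpst only in Flox 4. That ranking depends on the exon lengths behind the FPKM values, 3163 bases for Tst and 2143 for Mpst. By fragments, Tst exceeded Mpst in Flox 2 to 5 (1446 against 1444, 1222 against 1181, 1981 against 1259 and 1747 against 1444). The log2 ratio was -0.37 ± 0.28 in Flox and -2.57 ± 0.30 in Ad-GHRKO, so the level of Tst was lower by a larger factor than that of its paralog in these libraries.

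**Figure D2:**
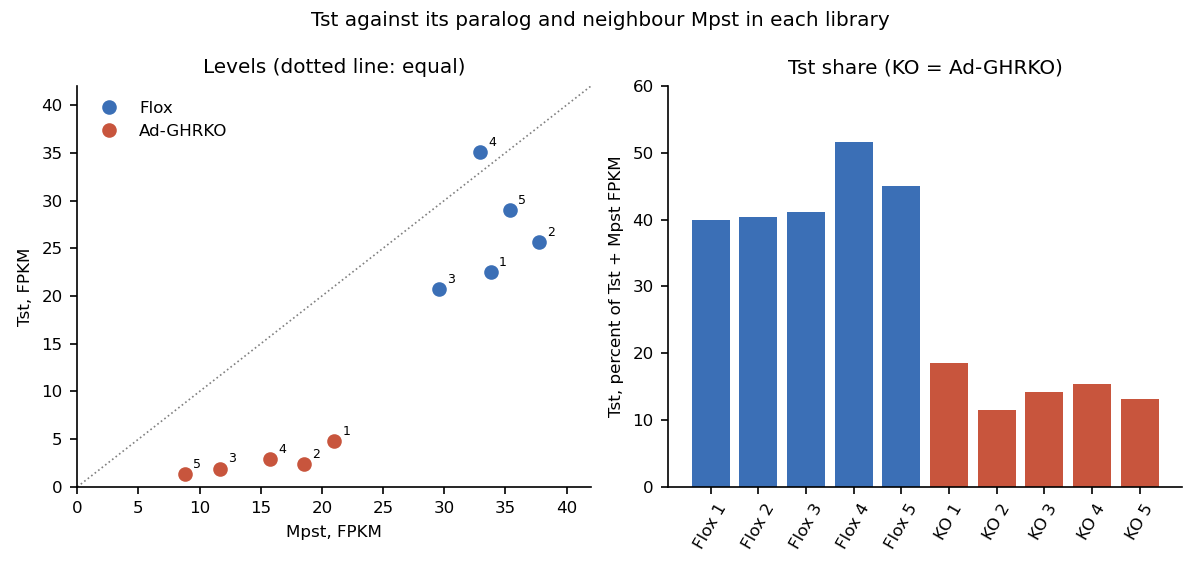
Left, Tst against Mpst in FPKM, 1 point per library with the replicate number, and a dotted line of equal levels; right, Tst as a percent of the summed Tst and Mpst FPKM in each library (KO stands for Ad-GHRKO). Flox libraries lie between 39.97% and 51.6% and Ad-GHRKO libraries between 11.5% and 18.6%.

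The starts of Tst and Mpst lie 509 bases apart on chromosome 15 and the genes are read away from each other; Ghr is on the same chromosome, 74.8 Mb from Tst. Of the 13 genes whose start lies within 150 kb of the Tst start, 11 were neither Tst nor Mpst, and 5 of these were high enough to be tested. By limma 0 of the 5 passed, with 0 at an unadjusted p under 0.05, and in the test on recovered reads 0 passed. Kctd17, 22657 bases beyond on the Mpst side, was at 47.9 ± 8.15 FPKM in Flox against 36.0 ± 10.3 in Ad-GHRKO (log2 difference -0.44, limma adjusted p = 0.350). Il2rb, the interleukin 2 receptor beta chain 89364 bases away, had a difference of -0.52 (adjusted p = 0.414), and C1qtnf6, 125509 bases away, one of 0.12 (0.876). On the far side of Tst, the cytokine receptor genes Csf2rb and Csf2rb2 had differences of 0.01 (adjusted p = 0.989) and 0.34 (0.593). The sign for Csf2rb turned with median ratio scaling and with quantile normalization. Tex33, Gm36644, Tmprss6, Gm49490, Sstr3 and Gm6723 were too low to be tested. Over all 12785 genes tested, 1.42% were called lower and 0.774% higher, so 0 of 5 tells little about the genes around the pair. Kctd17 and Il2rb had negative differences, and C1qtnf6, Csf2rb and Csf2rb2 had positive ones. Whether any of them differed from the head-to-head pair was not tested.

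**Figure D3:**
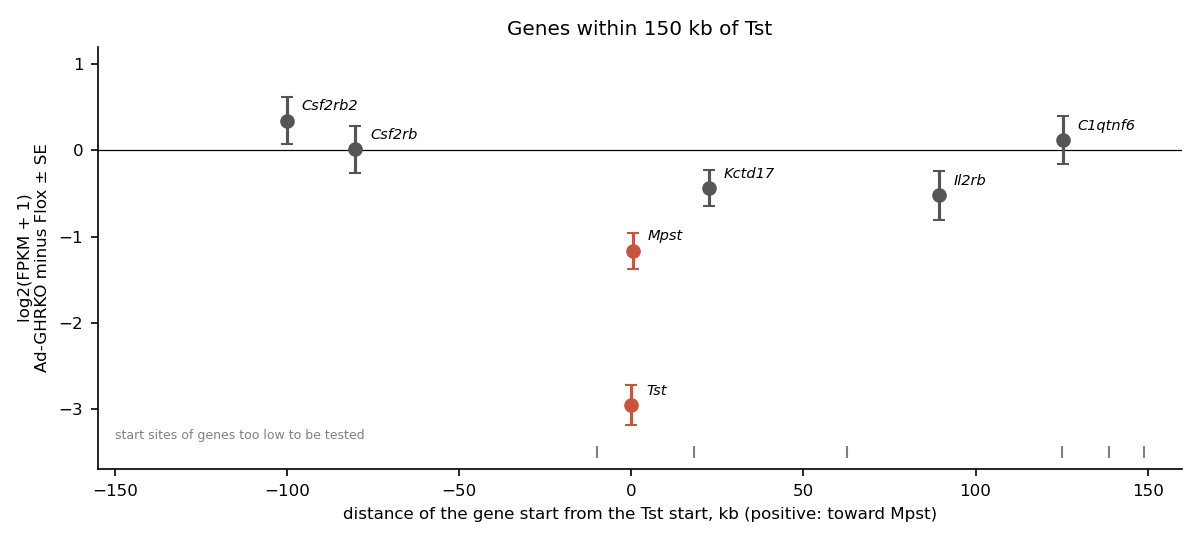
Log2(FPKM + 1) difference, Ad-GHRKO minus Flox, ± SE (5 libraries each) for tested genes whose start lies within 150 kb of the Tst start, against distance in kb; ticks mark genes too low to be tested. Tst (-2.96) and Mpst (-1.17) lie near 0 kb, and the other 5 genes lie between -0.52 and 0.34.

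Because most of these enzymes work in mitochondria, each was set against 18 genes of general mitochondrial content, such as Cs, Hspd1 and Tomm20. None of the 18 passed limma in either direction; 14 had a negative difference (4 at an unadjusted p under 0.05, all lower), with a list median of -0.14 against 0.04 for all genes tested. Cs, citrate synthase, was at 107 ± 21.5 FPKM in Flox against 73.3 ± 18.9 in Ad-GHRKO (adjusted p = 0.201), and Vdac1, the most abundant on the list, at 117 ± 43.7 and 119 ± 90.3 FPKM (0.895). Timm44, an import factor with the smallest p on the list, was at 18.5 ± 2.66 and 13.7 ± 0.707 FPKM (adjusted p = 0.120). The mean log2 level of the list was 4.94 ± 0.111 in Flox and 4.79 ± 0.155 in Ad-GHRKO. Relative to that mean, the log2 difference between genotypes was -2.81 for Tst, -1.02 for Mpst, -0.34 for Cth, -0.06 for Suox, 0.01 for Ethe1 and 0.03 for Cdo1. The differences of Tst and Mpst were therefore little changed by this reference, and those of Ethe1, Suox and Cdo1 were near 0. The value for Cdo1 is imprecise, with relative levels of 4.21 ± 0.446 in Flox and 4.24 ± 0.683 in Ad-GHRKO. Without Ad-GHRKO 1 the Cdo1 difference was 0.32.

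Inside the Ad-GHRKO group 5 of the 6 genes ran in a similar order across libraries. Ad-GHRKO 5 was the lowest and Ad-GHRKO 3 the second lowest for Tst, Mpst, Ethe1, Suox and Cth, and Ad-GHRKO 1 was the highest for Tst, Mpst, Ethe1 and Suox. Cdo1 ran differently, with Ad-GHRKO 1 the lowest. In Flox no such common order was seen. The summed level of 7 macrophage markers in Ad-GHRKO 1 to 5 was 832, 1184, 1684, 1555 and 2289 FPKM, lowest in library 1 and highest in library 5; in Flox 1 to 5 it was 1703, 561, 1049, 1731 and 550 FPKM. All 7 markers were at 1 FPKM or more on average and none passed limma between the genotypes, with 1 higher at an unadjusted p under 0.05. Muscle reads were highest in Ad-GHRKO 1, as given above. The part of macrophage or muscle RNA in these orders was not tested.

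**Figure D4:**
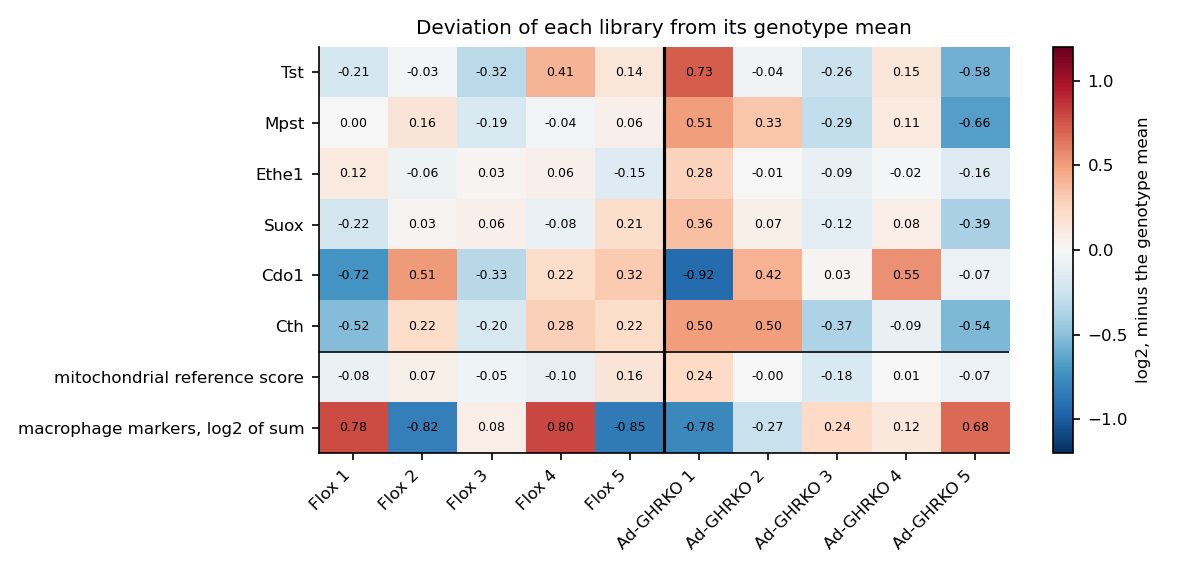
Deviation of each library from the mean of its genotype on the log2 scale (colour and printed value) for the 6 genes, the mean of the 18 mitochondrial reference genes and the log2 sum of 7 macrophage markers. In Ad-GHRKO 5 Tst, Mpst, Ethe1, Suox and Cth are all below their genotype mean and the macrophage sum is above it; in Ad-GHRKO 1 the signs are the other way.

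Around the 6 genes, 6 lists of sulfur metabolism held 56 genes, of which 49 were tested. By limma 0 of the 49 passed, as by the test on recovered reads. At an unadjusted p under 0.05, 6 were lower and 3 higher, beside 2091 of all 12785 genes tested. No change of a list is read from the unadjusted counts here and below. The median log2 difference was -0.02 against 0.04 for all genes tested. With the mitochondrial list added, 0 of 67 passed (10 lower and 3 higher unadjusted); 40 of the 67 differences were negative with a median of -0.06, which became 0.06 with the values rescaled to a common total. The count moved with single libraries. Without Ad-GHRKO 1, 5 of the 67 passed, in a fit where 1185 of all 12785 genes passed: Txn2 as lower, and Ahcyl1, Aox1, Papss2 and Tstd3 as higher. Without Flox 1 only Slc25a10 passed, as lower, beside 193 of all 12785. Without the 3 muscle-rich libraries Csad passed as lower and Ahcyl1 and Aox1 as higher, beside 777 of all 12785. Adjusted p values from such fits, given below for single genes, are read with these wider counts.

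In the list of sulfide oxidation partners 0 of 9 passed (3 lower and 1 higher at an unadjusted p under 0.05), with a median of -0.09. Sqor, the quinone reductase that takes electrons from hydrogen sulfide, measured 38.5, 36.9, 30.7, 37.4 and 25.9 FPKM in Flox 1 to 5 and 17.9, 30.8, 26.8, 31.6 and 21.5 FPKM in Ad-GHRKO 1 to 5. These groups overlapped, with a log2 difference of -0.40 (SE 0.18, limma adjusted p = 0.302). Slc25a10, the dicarboxylate carrier that also exports sulfite and thiosulfate from mitochondria, had the largest gap of the list. It measured 60.6, 185, 86.2, 153 and 178 FPKM in Flox 1 to 5 and 30.0, 79.2, 46.8, 55.0 and 29.0 FPKM in Ad-GHRKO 1 to 5. Flox 1 lay inside the Ad-GHRKO range; the log2 difference was -1.42 (SE 0.36, adjusted p = 0.0707, and 0.0360 without Flox 1). Reads of Slc25a10 and of the predicted gene Gm11788 on the other strand may not be separable. Txn2, mitochondrial thioredoxin, was at 43.3 ± 3.23 and 31.4 ± 4.59 FPKM and its groups did not overlap, but it did not pass with all libraries (adjusted p = 0.103, and 0.0476 without Ad-GHRKO 1).

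The small rhodanese-domain genes related to Tst showed other values. Tstd3, which overlaps Ccnc and Usp45, was at 2.40 ± 0.716 FPKM in Flox against 4.01 ± 1.15 in Ad-GHRKO (log2 difference 0.55, adjusted p = 0.175, and 0.0367 without Ad-GHRKO 1). Tstd1 was at 2.02 ± 1.35 and 1.66 ± 0.399 FPKM (adjusted p = 0.914), and Tstd2 at 3.505 ± 0.554 and 3.72 ± 0.631 FPKM (0.865). Selenbp1, a methanethiol oxidase that releases hydrogen sulfide, was at 69.0 ± 15.7 and 82.2 ± 32.1 FPKM (0.804).

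On the supply side, 0 of 10 tested genes of the methionine cycle and transsulfuration passed (0 also at an unadjusted p under 0.05), with a median of 0.05. Cbs, which feeds Cth with cystathionine, was at 2.06 ± 0.792 FPKM in Flox against 2.06 ± 0.908 in Ad-GHRKO, with a log2 difference of -0.02 (SE 0.24, adjusted p = 0.981) whose sign turned in several other settings. Ahcyl1, the most abundant on the list, was at 20.6 ± 2.03 and 26.2 ± 6.54 FPKM (adjusted p = 0.492, and 0.0216 without Ad-GHRKO 1). Mtrr, methionine synthase reductase, had the smallest p, at 2.59 ± 0.494 and 3.20 ± 0.120 FPKM (0.351).

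Downstream of Cdo1, 0 of 5 genes of cysteine oxidation passed (2 lower unadjusted), with a median of 0.14. Csad, the decarboxylase that makes hypotaurine from the product of Cdo1, measured 80.6, 70.9, 64.4, 58.6 and 33.6 FPKM in Flox 1 to 5 and 19.2, 37.8, 38.7, 46.5 and 31.0 FPKM in Ad-GHRKO 1 to 5. Flox 5, rich in muscle reads, lay inside the Ad-GHRKO range. The log2 difference was -0.81 (SE 0.27, adjusted p = 0.157), and without the 3 muscle-rich libraries it was -0.85 (0.0329); Csad overlaps Zfp740. Fmo1, which oxidises hypotaurine to taurine, was at 37.0 ± 4.80 and 26.2 ± 10.01 FPKM (adjusted p = 0.296).

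Suox needs the molybdenum cofactor, and 0 of 10 tested genes of its synthesis and of the other molybdenum enzymes passed (1 higher unadjusted), with a median of -0.05. Aox1, aldehyde oxidase, had the smallest p of the list. It measured 14.9, 15.4, 11.8, 10.7 and 10.1 FPKM in Flox 1 to 5 and 12.5, 29.7, 27.0, 26.9 and 22.4 FPKM in Ad-GHRKO 1 to 5. Ad-GHRKO 1 alone lay inside the Flox range; the log2 difference was 0.83 (SE 0.22, adjusted p = 0.0867), and without that library it was 1.03 (0.00462). Xdh, the most abundant of the list, was at 50.8 ± 11.6 and 65.2 ± 20.5 FPKM (0.610).

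In sulfate activation 0 of 7 passed (0 at an unadjusted p under 0.05; median 0.05), with Bpnt1, a phosphatase of the adenylate by-product, at 26.8 ± 1.04 and 22.9 ± 4.70 FPKM (adjusted p = 0.466) and Impad1 at 6.76 ± 1.18 and 8.15 ± 0.971 FPKM (0.429). In glutathione synthesis and turnover 0 of 8 passed (1 lower and 1 higher unadjusted; median -0.08). Ggt5, which cleaves extracellular glutathione conjugates, was at 10.2 ± 1.16 and 6.86 ± 2.10 FPKM (adjusted p = 0.159). Gclc, the catalytic subunit of the first step of synthesis, was at 7.09 ± 1.04 and 8.97 ± 1.15 FPKM (0.281). Oplah, 5-oxoprolinase and the most abundant of the list, was at 24.8 ± 2.81 and 20.1 ± 5.84 FPKM (0.434).

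**Figure D5:**
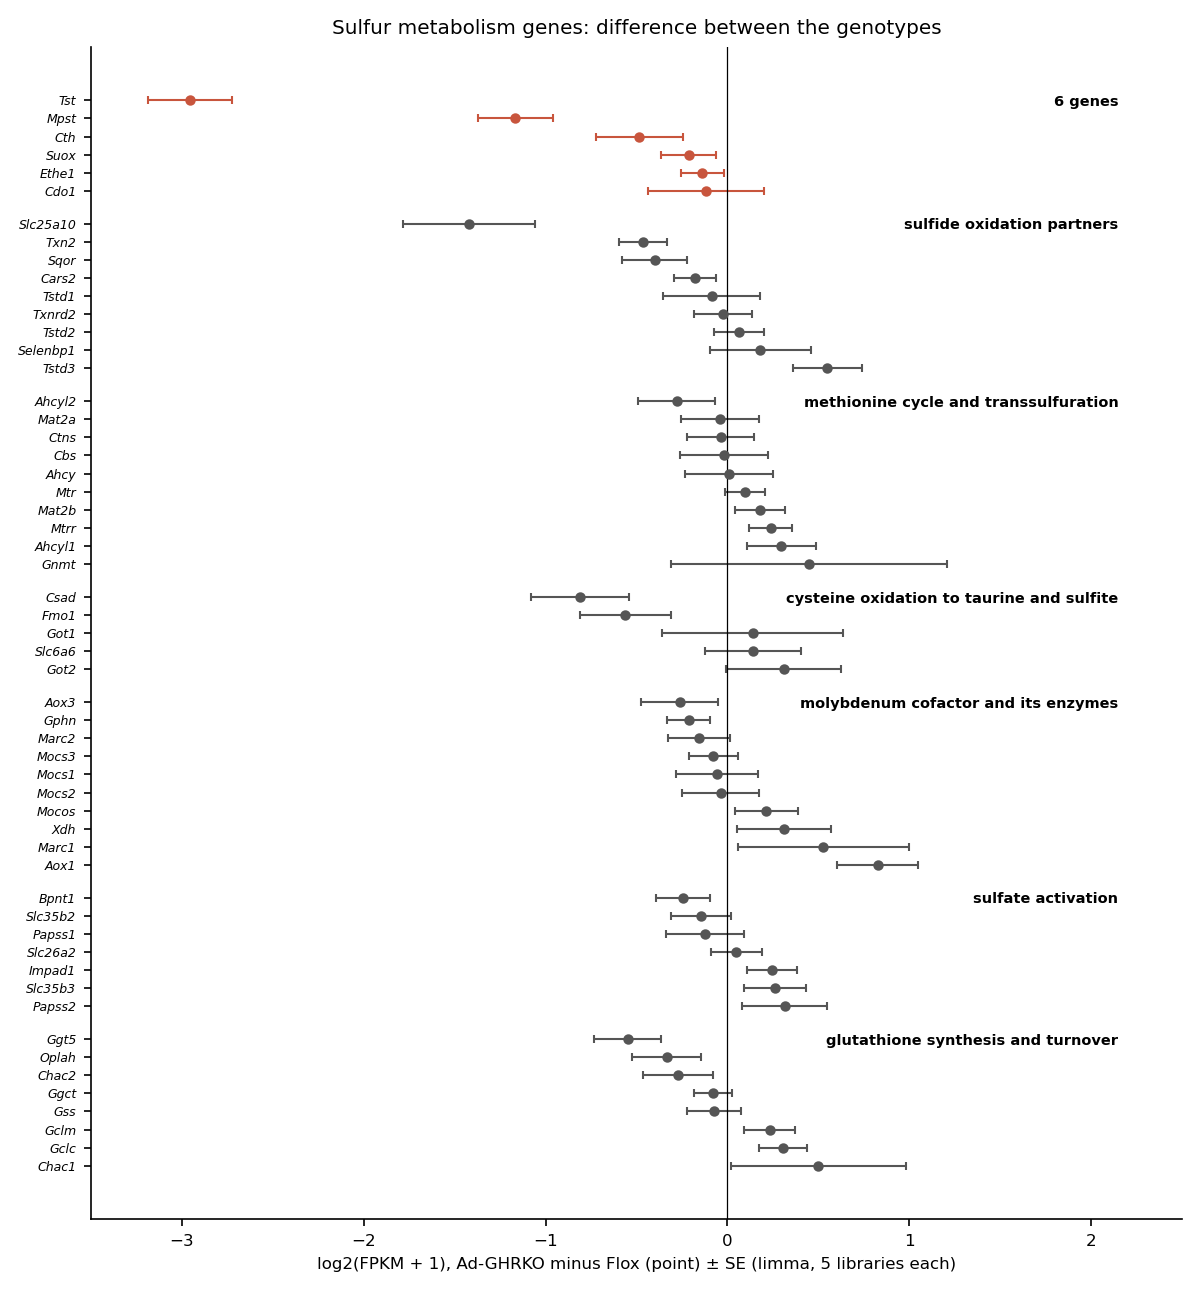
Log2(FPKM + 1) difference, Ad-GHRKO minus Flox, ± SE from limma (5 libraries each) for the 6 genes (red) and for the 49 tested genes of 6 sulfur metabolism lists (grey). Tst at -2.96 lies beyond every grey point, of which Slc25a10 at -1.42 is the lowest, and Aox1 at 0.83 is the highest.

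The genes whose levels ran most like those of Tst were ranked among 9834 genes by Pearson correlation of log2(FPKM + 1) over the 10 libraries, as a description without a p. This measure carries the gap between the genotypes, which the libraries share. The nearest were the zinc finger gene Zfp771 (0.983), the receptor gene Gfra4 (0.979), the phosphatase inhibitor Ppp1r1a (0.970), the cytochrome oxidase subunit Cox5b (0.966) and the selenophosphate synthetase Sephs2 (0.966). Mpst came at rank 18 (0.945), Cth at 692 (0.679), Suox at 929 (0.608), Ethe1 at 964 (0.598) and Cdo1 at 3231 (0.090). Their sizes of difference varied: Ppp1r1a was at 90.4 ± 11.6 FPKM in Flox against 24.6 ± 10.4 in Ad-GHRKO, Sephs2 at 18.1 ± 1.94 and 8.29 ± 1.40 FPKM, Gfra4 at 3.57 ± 0.519 and 1.16 ± 0.435 FPKM, and Zfp771 at 16.2 ± 1.41 and 10.8 ± 0.905 FPKM.

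With the genotype means removed, the ranking changed. The nearest to Tst were then Cox7c, a cytochrome oxidase subunit (0.949), Slc25a3, the mitochondrial phosphate carrier (0.921), Wbp1l (0.921), Psmd2, a proteasome subunit (0.885), and Zfp771 again (0.881). Mpst came at rank 52 (0.787), Cth at 64 (0.775), Suox at 87 (0.752), Ethe1 at 275 (0.630) and Cdo1 at 2689 (-0.11). Slc25a3 was at 80.5 ± 4.08 FPKM in Flox against 76.9 ± 15.9 in Ad-GHRKO, a difference that did not pass (limma adjusted p = 0.829), though it followed the library-to-library order of Tst. Cox7c, Slc25a3, Wbp1l, Psmd2 and Zfp771 all had their highest Ad-GHRKO level in the muscle-rich library Ad-GHRKO 1, as Tst did. The part of muscle RNA in these correlations was not tested.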

How the data were processed

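RNA of 10 inguinal fat libraries was measured. Selection of polyadenylated RNA and marking of the second strand are described, per the labels' protocols; the sources used here name no aligner, counter or strand setting. The authors deposited FPKM values per gene, per the file headers. The submitters' processing notes name GRCm39, but 99.54% of 31253 shared identifiers had the GRCm38 coordinates of GENCODE M21, which are printed. FPKM times exon length gave whole fragments (tolerance 0.01) for 99.24% to 99.32% of values per library, and for 31053 genes in all libraries.

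Genes reaching 1 FPKM in 5 or more libraries were fitted by limma 3.58.1 (trend, R 4.3.3) on log2(FPKM + 1), two-sided, with Benjamini-Hochberg adjustment over 12785 genes; 280 passed 0.05. Python 3.11.15, pandas 2.3.3, Biopython 1.88 and matplotlib 3.10.9 did the rest. The code was tested on simulated data.

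The members and lists were chosen with earlier results of these data known. Named genes were the members, Ghr, list genes that passed, each list's most abundant gene and its gene with the smallest p, genes within 150 kb of Tst, and the 5 genes most like Tst by each measure. Sqor, Txn2, Tstd1, Tstd2, Tstd3, Selenbp1, Cbs, Fmo1, Gclc, Cs, Cidea, Ucp1, Adipoq and Lep were named after their values were seen. Of 74 list genes outside the members, 73 were analysed (3 through RefSeq synonyms) and 67 tested. Alternatives were other pseudocounts, filters and scalings, TPM rescaling, a replicate block, array weights and leaving out each library; fits without muscle-rich libraries and limma voom on recovered reads were added after seeing the data. Overlapping genes may share reads.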

Additional observations from a re-analysis of the deposited data

Results flagged for a closer look

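Of 88 groups of 5 libraries examined for a library far from the other 4, 6 exceeded the critical gap of 0.71, and chance alone flags about 1 group in 20. None was a group of the 6 sulfide metabolism genes, and all 6 were in libraries rich in muscle reads. In Ad-GHRKO 1, Ahcyl1 was at 14.7 FPKM against 27.2 to 30.3 FPKM in the other Ad-GHRKO libraries. In the same library Vdac1 was at 279.7 FPKM against 68.1 to 86.5 FPKM, Slc25a3 at 104.6 FPKM against 65.0 to 74.4 FPKM, Wbp1l at 59.4 FPKM against 32.3 to 38.3 FPKM, and Psmd2 at 77.4 FPKM against 55.1 to 61.3 FPKM. In Flox 3, Txn2 was at 37.7 FPKM against 43.7 to 45.2 FPKM. Slc25a3, Wbp1l and Psmd2 were named because their deviations ran like those of Tst, which was itself highest in Ad-GHRKO 1 within its group. Their flags in that library are therefore not independent of how they were chosen. The part of muscle RNA in these values was not tested.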

How the results depend on the processing

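The members were chosen on this contrast, so their values under the alternatives are a description. The log2 difference of Tst was -3.14 to -2.81 when each library was left out, -3.37 with a pseudocount of 0.1 and -3.40 on recovered reads. That of Mpst was -1.29 to -1.001 leaving out libraries. Cdo1 was negative in 15 of 22. The difference in log2 Tst over Mpst was -2.20, and -1.79 with a pseudocount of 1. Tst relative to mitochondrial genes was -3.21 with a pseudocount of 0.1, against -2.81. The cause of these shifts was not tested.

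The 280 genes changed (181 lower, 99 higher) became 117 with no filter, 531 (294 and 237) with median ratio scaling, 451 with quantile normalization, 234 (93 and 141) with TPM rescaling, which moved the median of all genes from 0.04 to 0.15, 1695 (692 and 1003) with array weights, 777 (399 and 378) without the 3 muscle-rich libraries and 675 (313 and 362) without the 4 with muscle reads. Leaving out each library gave 116 (without Ad-GHRKO 3) to 1185 (407 lower, 778 higher, without Ad-GHRKO 1); it also fell to 135, 153, 137 and 167 without Flox 2, 3, 4 and 5, and to 154 and 134 without Ad-GHRKO 4 and 5. Of 67 pathway genes, 0 passed; 3 did with median ratio scaling, 1 with quantile normalization, 9 with array weights, 3 without the 3 muscle-rich and 3 without the 4 libraries, and 0 to 5 leaving out each library. Signs turned for Vdac1 (-0.51 to 0.037 leaving out libraries), for Csf2rb (-0.016 with median ratio scaling, -0.031 with quantile normalization, -0.023 and -0.028 without the 3 and the 4 libraries, and -0.22 to 0.16 leaving out libraries), for C1qtnf6 (-0.050 to 0.32 leaving out libraries), for Slc25a3 (0.035 with TPM rescaling) and for Cbs (0.070 with TPM rescaling, 0.13 with array weights, -0.15 to 0.16 leaving out libraries).

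Replicate numbers did not pair the libraries: same-number correlations of deviations were -0.49, 0.39, -0.03, 0.28 and -0.26. With the replicate block 85 genes passed (60 lower, 25 higher), 0 of the pathway genes among them; 1 of the 6 members was called, against 2 without the block. Depth limits Cth and Tst in Ad-GHRKO most, with as few as 70 and 62 fragments.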
